A study of Rattus norvegicus with 9 samples.

Results

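Interferon response genes are the genes that a cell switches on when an interferon, a secreted alarm protein, binds its receptor. A list of 37 of them was looked up by symbol in both deposited tables, which hold 17145 rows each, and 35 had a row. The expression of Nlrc5 and Xaf1 is not analysed here. The 35 divide into 21 targets of type I interferon, 11 targets of interferon gamma and 3 genes induced by both.

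Otsuka Long-Evans Tokushima fatty rats, an obese strain without a functional cholecystokinin A receptor, were operated on. Total RNA of their ileum was sequenced 1 month later. The labels name 3 groups with 3 replicates each. The first had a Roux-en-Y operation (RYGB, gastric bypass) and is labelled FDG decreased, the second had the same operation and is labelled FDG increased, and the third had a sham operation. FDG is read here as fluorodeoxyglucose, the glucose analogue of positron emission tomography, which the labels do not spell out. All groups share the strain and the tissue, and the labels give no age and do not say whether replicates came from separate animals. The p-values therefore measure only the spread between these samples, which may be technical. One table, called the RYGB table, holds the FDG-decreased and FDG-increased libraries. The other, called the sham table, holds FDG-increased and sham libraries.

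Type I interferons and interferon gamma act through different receptors. The type I receptor activates a complex containing Stat2 and Irf9 that binds a DNA element called ISRE, the interferon-stimulated response element. The interferon gamma receptor acts through another element, GAS, the gamma-activated sequence, and it raises Irf1, which in turn can bind ISRE-like sites. In the gut, the epithelium also answers to interferon lambda, whose receptor leads to the same complex as the type I receptor. Some of the type I targets degrade or trap viral RNA, sense it or stop its translation, and others, such as Irf7, are transcription factors. The interferon gamma targets include GTPases that attack intracellular microbes and the machinery that cuts and loads peptides for MHC class I.

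Several libraries stood apart. FDG-increased columns 2 and 3 of the sham table are FDG-increased columns 1 and 2 of the RYGB table multiplied by 1.023 and 1.0204, so the tables share these libraries. There are 10 distinct libraries, of which 4 are FDG-increased, whereas the labels describe 9 samples with 3 FDG-increased. The column names of the RYGB table are those of the labels, so FDG-increased column 1 of the sham table has no sample label of its own and no known lane. Sham replicate 1 went against its label as ileum: Fabp6, which carries bile acids in ileal enterocytes, had 22.6 FPKM in it, against 8375 and 11347 FPKM in the other sham libraries. Lct, which encodes lactase and marks the upper intestine, had 253 FPKM in that library and 8.6 and 0.317 FPKM in the other sham libraries. Replicates 3 of both RYGB groups in the RYGB table held the least RNA of immune cell and enterocyte markers in that table, as described with the members. The sum of FPKM, fragments scaled to transcript length and to the mapped fragments of the library, was 465697 to 864511 per library, and 10332 to 10892 genes reached 1 FPKM. Read depth is unknown.

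The control regions of the members can be read for both elements. RefSeq promoter windows of build GRCr8, from 250 bases before to 50 bases after the annotated start, were at hand for 27 members, Xaf1 among them. The ISRE core was searched as GAAA, any 2 bases and GAAA again, and the gamma-activated sequence as TTC, any 3 bases and GAA, both on either strand. The ISRE core was present in 18 of the 27 windows, against 3.92% of all 33469 windows, and GAS in 9, against 8.87% of all windows. Among type I targets 8 of 13 windows held the ISRE core and 3 of 13 held GAS. Among interferon gamma targets the counts were 8 of 11 and 5 of 11. Of the 3 genes induced by both, 2 held the ISRE core and 1 held GAS. Both motifs were present in 6 windows and neither in 6. A match describes the letters in the window and is not a binding site by itself.

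Windows of 7 members are printed 5′ to 3′ on the strand of the gene, with the ISRE core and GAS matches in capitals. They show a type I target with 1 ISRE core (Irf7, chr1:205799974-205800273, minus strand) and one with 2 overlapping cores close to the start and a distant GAS (Oas1a, chr12:41330216-41330515, plus strand). Gbp2 (chr2:234005477-234005776, plus strand) is an interferon gamma target with an ISRE core only, and Irf1 (chr10:38417685-38417984, plus strand) one with GAS only. Igtp (chr10:42874797-42875096, plus strand), Irgm (chr10:33742529-33742828, minus strand) and Parp14 (chr11:78407884-78408183, plus strand) hold both motifs side by side.
Irf7: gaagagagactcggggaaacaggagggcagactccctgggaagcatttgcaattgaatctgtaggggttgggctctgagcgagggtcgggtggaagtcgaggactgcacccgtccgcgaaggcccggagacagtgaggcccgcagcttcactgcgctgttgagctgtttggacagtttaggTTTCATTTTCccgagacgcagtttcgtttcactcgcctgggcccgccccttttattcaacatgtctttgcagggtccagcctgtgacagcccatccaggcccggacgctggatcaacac
Oas1a: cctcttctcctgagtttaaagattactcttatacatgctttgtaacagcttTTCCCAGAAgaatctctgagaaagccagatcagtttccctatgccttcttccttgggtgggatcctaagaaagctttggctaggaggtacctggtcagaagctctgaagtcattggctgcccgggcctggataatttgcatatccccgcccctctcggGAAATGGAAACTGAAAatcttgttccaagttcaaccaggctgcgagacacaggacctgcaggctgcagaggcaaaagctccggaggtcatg
Gbp2: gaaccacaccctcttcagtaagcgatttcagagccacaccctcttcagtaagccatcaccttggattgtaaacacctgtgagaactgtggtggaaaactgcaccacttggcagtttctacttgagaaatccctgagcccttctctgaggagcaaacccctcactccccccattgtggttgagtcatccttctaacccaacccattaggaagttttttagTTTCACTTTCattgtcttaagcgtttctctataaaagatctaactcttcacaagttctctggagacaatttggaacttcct
Irf1: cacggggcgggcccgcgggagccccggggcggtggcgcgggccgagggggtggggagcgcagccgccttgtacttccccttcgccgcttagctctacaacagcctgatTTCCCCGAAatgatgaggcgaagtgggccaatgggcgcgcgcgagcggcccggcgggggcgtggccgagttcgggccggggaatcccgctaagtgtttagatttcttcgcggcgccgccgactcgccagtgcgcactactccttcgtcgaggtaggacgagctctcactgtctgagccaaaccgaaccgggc
Igtp: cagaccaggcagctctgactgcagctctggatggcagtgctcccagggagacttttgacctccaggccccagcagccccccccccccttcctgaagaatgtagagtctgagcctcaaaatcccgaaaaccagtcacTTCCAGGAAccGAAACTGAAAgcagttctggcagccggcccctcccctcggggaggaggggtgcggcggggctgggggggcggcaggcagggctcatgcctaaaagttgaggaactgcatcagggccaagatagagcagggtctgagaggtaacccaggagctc
Irgm: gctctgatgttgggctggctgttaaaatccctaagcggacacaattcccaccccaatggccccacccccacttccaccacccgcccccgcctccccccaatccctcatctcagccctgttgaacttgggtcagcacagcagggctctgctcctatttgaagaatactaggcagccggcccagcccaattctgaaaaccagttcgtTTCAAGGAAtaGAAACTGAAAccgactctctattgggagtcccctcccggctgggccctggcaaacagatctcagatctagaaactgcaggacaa
Parp14: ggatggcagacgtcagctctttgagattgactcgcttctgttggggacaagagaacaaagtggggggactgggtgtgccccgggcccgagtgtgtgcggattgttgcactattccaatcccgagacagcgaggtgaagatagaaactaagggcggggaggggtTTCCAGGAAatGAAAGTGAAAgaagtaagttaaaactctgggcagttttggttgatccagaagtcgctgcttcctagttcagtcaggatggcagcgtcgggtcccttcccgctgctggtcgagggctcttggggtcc

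In Igtp, Irgm and Parp14 the ISRE core began 11 bases after the first base of GAS, with 2 bases between the motifs. This spacing was looked for after the positions had been seen. It was present, on either strand, in 7 of the 33469 windows (0.0209%), and 3 of those 7 belong to members. Igtp and Irgm are both immunity-related GTPase genes, so their windows may not be independent of each other. In Bst2 the GAS match began 6 bases before the first of 2 ISRE cores and overlapped it. The ISRE core nearest to the start began 31 bases before it in Gbp2, 35 in Oas1a and 69 in Irf7.

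**Figure D1:**
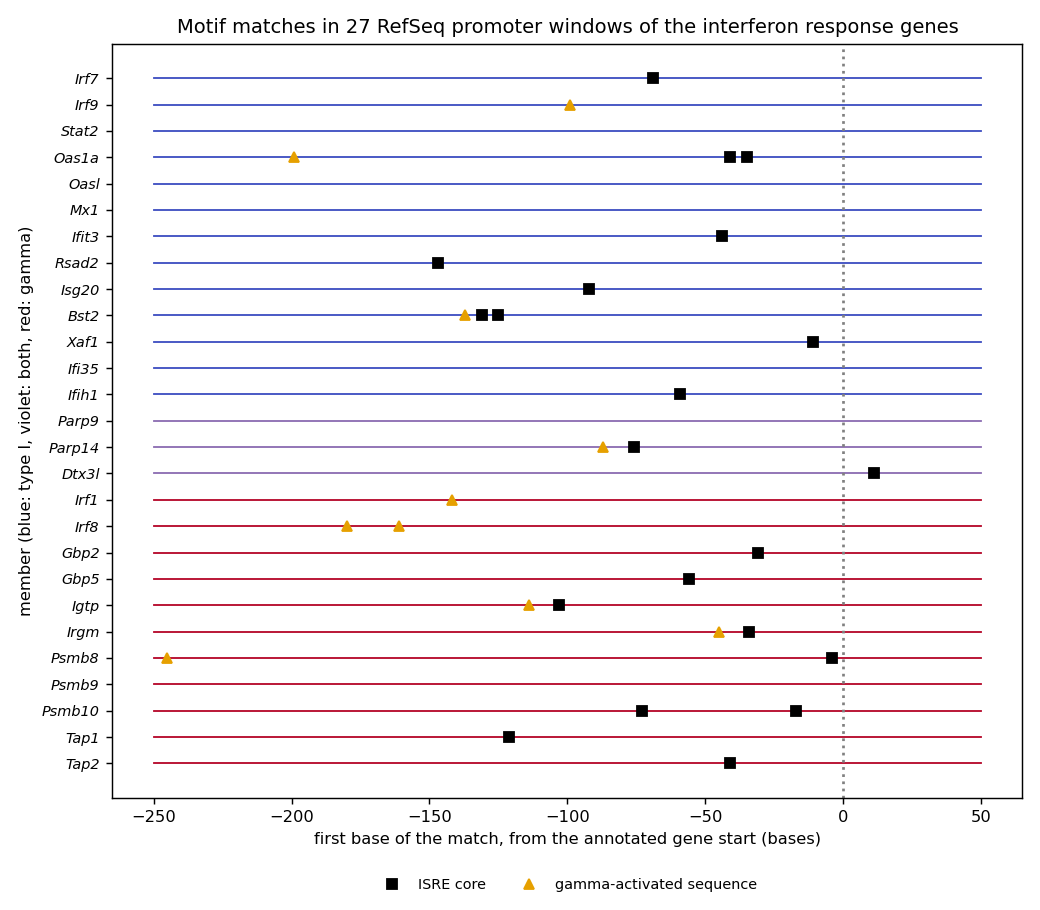
Positions of motif matches in the 27 RefSeq promoter windows of the members. The horizontal axis gives the first base of each match in bases from the annotated start, squares are ISRE cores and triangles are gamma-activated sequences, and rows are coloured by interferon class. In Igtp, Irgm and Parp14 a triangle and a square stand side by side, and 6 windows hold no match.

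Levels differed widely among the members. FPKM is scaled per transcript length, so levels can be set side by side. The immunoproteasome subunits Psmb8, Psmb9 and Psmb10 were the highest, with group means of 67.9 to 150.8 FPKM over both tables. Irf1 followed with group means of 54.48 to 77.98 FPKM, and these 2 ranges overlap. Among type I targets Irf7 reached the highest group mean, 51.55 FPKM in FDG-increased ileum of the sham table. At the low end, Oas2 averaged 0.6968 to 1.129 FPKM and Tap2, a subunit of the peptide transporter, was listed at 0 in 8 of 12 columns with a highest value of 0.112 FPKM. Only genes that averaged 1 FPKM or more across a table's 6 libraries were tested, which left 33 members in the RYGB table and 34 in the sham table. Tap2 failed in both and Oas2 in the RYGB table.

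Most type I targets had higher values in FDG-increased ileum than in sham ileum, and no member passed the test. Log2 differences are differences of mean log2(FPKM + 1), a scale that understates the change of low genes. Of 21 type I targets 18 had a higher mean in FDG-increased ileum, and the median difference was 0.52. Of 10 measured interferon gamma targets 5 were higher and 5 lower, with a median of 0.01, and for all 3 genes induced by both the difference was positive (median 0.42). The same figures for the 10801 genes tested were 64.7% higher and a median of 0.13. Limma with Benjamini-Hochberg adjustment called 0 members, against 4 of all genes (0.037%). At an unadjusted limma p under 0.05 there were 8 members higher (6.15% of all genes) and 1 lower (1.69%). The groups did not overlap, with FDG-increased ileum higher, for 9 members (10.7% of all genes), and all 9 were type I targets. With FDG-increased ileum lower, the groups did not overlap for 2 members (4.44% of all genes), Bst2 and Igtp.

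**Figure D2:**
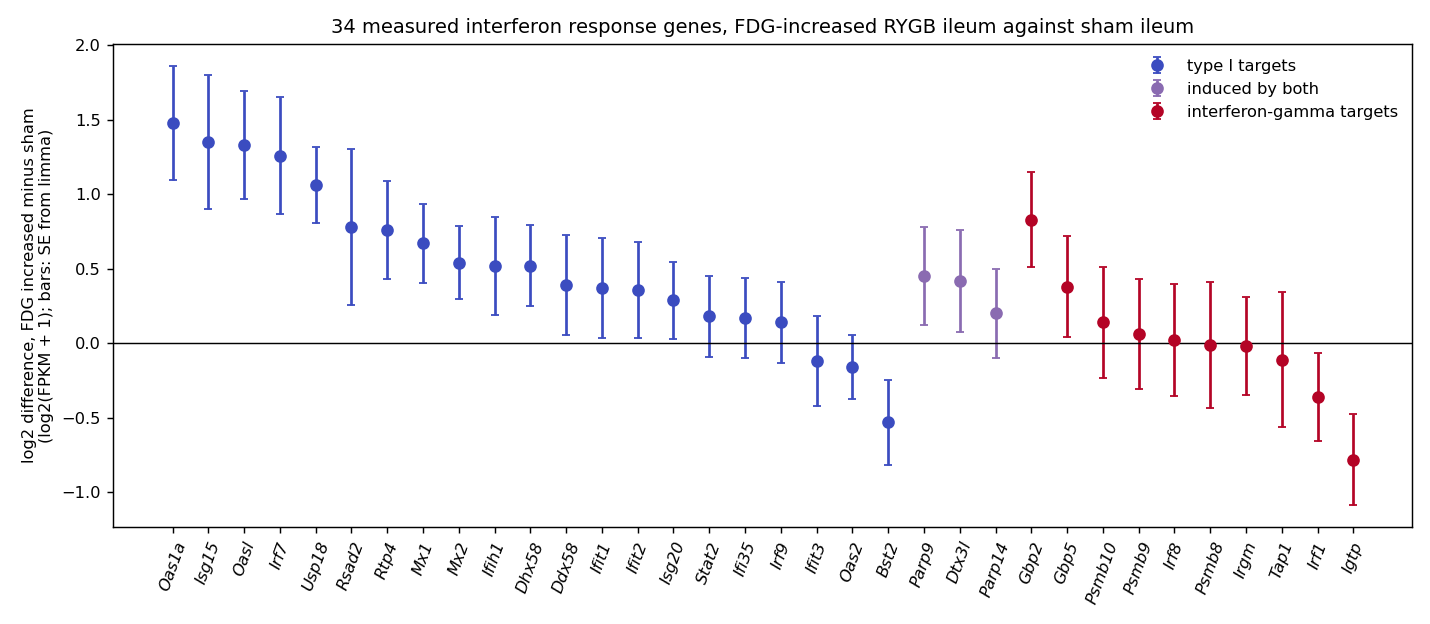
Log2 difference, FDG-increased minus sham ileum, for the 34 members tested in the sham table, on the log2(FPKM + 1) scale. Points are limma estimates from 3 libraries a group, bars are 1 SE, and members are grouped by interferon class and ordered by size. Type I targets run from Oas1a at 1.48 to Bst2 at -0.53, and interferon gamma targets from Gbp2 at 0.83 to Igtp at -0.78.

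Among transcription factors Irf7 stood out. Irf7, which drives the second wave of type I interferon production, had 73.5, 43.3 and 37.9 FPKM in FDG-increased ileum, against 27.6, 12.2 and 24.0 FPKM in sham ileum. Every FDG-increased library of this table lay above every sham library. The difference was 1.26 (SE 0.39) with a limma and Benjamini-Hochberg adjusted p of 0.516. Irf9 and Stat2, of the complex that binds ISRE, differed less, Irf9 by 0.14 and Stat2 by 0.18. Of the interferon gamma factors, Irf8, a factor of myeloid cells, differed by 0.02 and Irf1 by -0.36.

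Both genes of the Isg15 system were higher in every FDG-increased library of the sham table than in any sham library, and the FDG-increased library found in the RYGB table alone was not. Isg15, a small protein that is attached to other proteins as ubiquitin is, had 49.6, 43.3 and 31.5 FPKM in FDG-increased ileum, against 25.2, 6.92 and 20.3 FPKM in sham ileum. The difference was 1.35 (SE 0.447, limma and Benjamini-Hochberg adjusted p = 0.548). Usp18, the protease that removes Isg15 and damps the type I receptor, had 6.19, 5.07 and 5.35 FPKM in FDG-increased ileum, against 1.81, 1.61 and 3.15 FPKM in sham ileum. Its difference of 1.06 (SE 0.255) had the smallest limma and Benjamini-Hochberg adjusted p of the members in this table, 0.389. In the FDG-increased library of the RYGB table alone Isg15 had 8.51 FPKM, inside the sham range, and Usp18 0.492 FPKM, below it.

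The antiviral effectors were less uniform, with 10 of 13 higher in FDG-increased ileum and a median of 0.37. Oas1a, a synthetase of the 2′-5′ oligoadenylates that switch on an RNA-cutting enzyme, had 29.9, 11.2 and 18.5 FPKM in FDG-increased ileum, against 7.39, 3.83 and 7.4 FPKM in sham ileum. Oasl, a relative of the Oas enzymes, had 22.4, 23.5 and 22.6 FPKM in FDG-increased ileum, against 13.5, 4.32 and 10.1 FPKM in sham ileum. For Oas1a the difference was 1.48 (SE 0.381, adjusted p = 0.439) and for Oasl 1.33 (SE 0.364, adjusted p = 0.472), both by limma with Benjamini-Hochberg adjustment. Neither gene's groups overlapped, and the FDG-increased libraries were nearly equal for Oasl and spread widely for Oas1a.

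Mx1, a dynamin-like GTPase that blocks virus replication, had 6.8, 4.07 and 7.16 FPKM in FDG-increased ileum, against 3.89, 3.05 and 3.03 FPKM in sham ileum. Rtp4, a receptor transporter protein induced by interferon, had 16.6, 10.7 and 16.7 FPKM in FDG-increased ileum, against 8.5, 5.06 and 12 FPKM in sham ileum. The Mx1 groups did not overlap and the Rtp4 groups did. The differences were 0.67 (SE 0.264, adjusted p = 0.61) for Mx1 and 0.76 (SE 0.331, adjusted p = 0.63) for Rtp4, by limma with Benjamini-Hochberg adjustment.

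The other effectors ranged from 0.78 for Rsad2, the antiviral enzyme viperin, to -0.53 for Bst2, which tethers budding virus to the cell. Mx2 differed by 0.54 with groups that did not overlap. The RNA-binding Ifit proteins differed by 0.37 (Ifit1), 0.36 (Ifit2) and -0.12 (Ifit3), with overlapping groups, and the nuclease Isg20 by 0.29. Ifi35 differed by 0.17 and Oas2 by -0.16. The Oas, Mx, Ifit, guanylate-binding and immunity-related GTPase genes have near copies in the genome, and how the authors' counting divided shared reads is not given in the sources used here.

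Bst2 ran against its class. It had 16.1, 14.2 and 11.9 FPKM in FDG-increased ileum, against 17.8, 17.1 and 28.5 FPKM in sham ileum. The FDG-decreased libraries, on the scale of the RYGB table, had 16.2, 12.6 and 16.1 FPKM, and the FDG-increased library that is absent from the sham table had 12.6. Every RYGB library in either table thus lay below every sham library for Bst2. The limma difference for FDG-increased against sham ileum was -0.53 (SE 0.284) with a Benjamini-Hochberg adjusted p of 0.695.

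The 3 sensors of viral RNA were all higher in FDG-increased ileum, by 0.39 for Ddx58, which encodes RIG-I, 0.52 for Ifih1, which encodes MDA5, and 0.52 for Dhx58, which encodes LGP2. Ifih1 had 11.4, 12.1 and 25.7 FPKM in FDG-increased ileum, against 11.3, 8.92 and 11.1 FPKM in sham ileum. One FDG-increased library carried most of that difference, and the other 2 lay just above the highest sham library. The limma SE for Ifih1 was 0.33 and the Benjamini-Hochberg adjusted p 0.751.

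**Figure D3:**
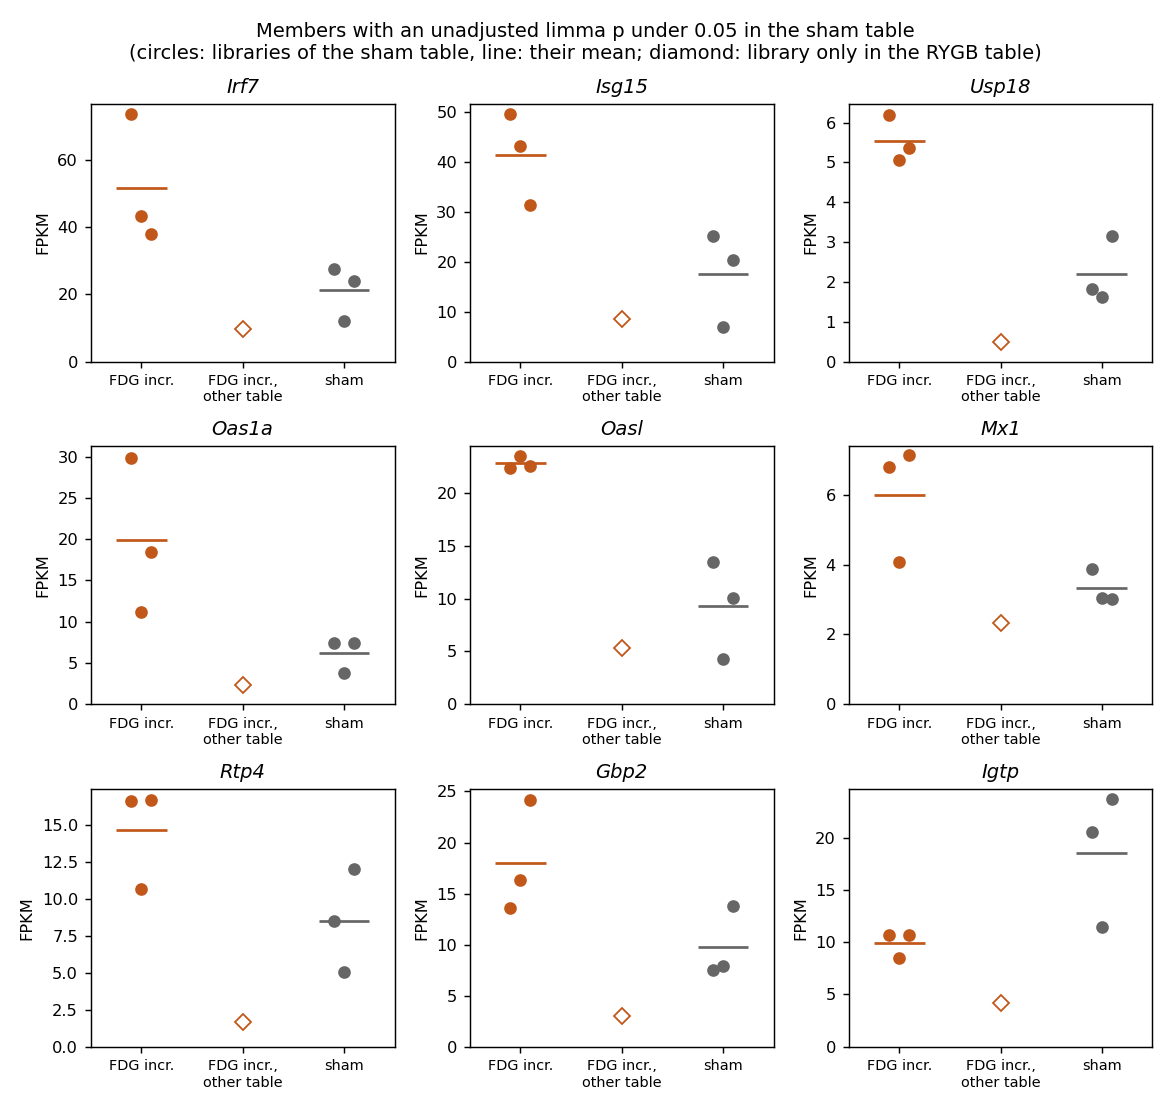
FPKM of the 9 members with an unadjusted limma p under 0.05 in the sham table. Filled circles are its 3 FDG-increased and 3 sham libraries with a line at the group mean, and the open diamond is the FDG-increased library of the RYGB table that the sham table lacks, on the scale of the RYGB table. The diamond lies below all filled FDG-increased circles in each panel.

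The interferon gamma targets were divided, and the division rested on single libraries. Without sham replicate 3, FDG-increased ileum was higher for 8 of 10 (median 0.26), and without sham replicate 2 for 2 of 10 (median -0.22). Gbp2, a guanylate-binding protein that coats microbes in the cytosol, had 13.6, 16.3 and 24.2 FPKM in FDG-increased ileum, against 7.48, 7.92 and 13.8 FPKM in sham ileum. Igtp, an immunity-related GTPase, had 10.7, 8.5 and 10.7 FPKM in FDG-increased ileum, against 20.5, 11.5 and 23.7 FPKM in sham ileum. The Gbp2 groups overlapped by 1 library on each side, and the Igtp groups did not overlap. Limma gave 0.83 (SE 0.319, adjusted p = 0.605) for Gbp2 and -0.78 (SE 0.305, adjusted p = 0.606) for Igtp after Benjamini-Hochberg adjustment. Gbp5 differed by 0.38 and Irgm by -0.02.

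The immunoproteasome and the peptide transporter showed little difference. Psmb10, an immunoproteasome subunit, had 140, 94.8 and 100 FPKM in FDG-increased ileum, against 142, 66.3 and 104 FPKM in sham ileum. Its difference was 0.14 (SE 0.372, limma and Benjamini-Hochberg adjusted p = 0.955), and the sign turned to -0.21 after quantile normalization. Psmb8 differed by -0.01, Psmb9 by 0.06 and Tap1 by -0.11, and the signs of these 4 genes turned when single libraries were left out. Tap1 had 24.1, 21.3 and 19.1 FPKM in FDG-increased ileum, against 17.5, 13.4 and 51.4 FPKM in sham ileum. The high value is that of sham replicate 3, which also held the highest mean of the interferon gamma targets. Psmb8, Psmb9, Tap1 and Tap2 are neighbours on chromosome 20 in RefSeq.

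Among the genes induced by both interferons Parp9, an ADP-ribosyltransferase, had 35.0, 37.2 and 67.5 FPKM in FDG-increased ileum, against 31.6, 30.0 and 35.4 FPKM in sham ileum. The difference was 0.45 (SE 0.328, limma and Benjamini-Hochberg adjusted p = 0.783). Dtx3l, the ubiquitin ligase that works with Parp9, differed by 0.42, and Parp14 by 0.20. Parp9 and Dtx3l overlap in RefSeq, and whether the counting used strand is not known here, so their values are uncertain.

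The classes can be set against each other within a library. The mean log2(FPKM + 1) of the 21 type I targets minus that of the 11 interferon gamma targets was -1.17, -1.13 and -1.13 in FDG-increased ileum, against -1.35, -1.64 and -2.04 in sham ileum. In the RYGB table it was -1.24, -1.04 and -1.36 in FDG-decreased ileum, against -1.13, -1.13 and -1.43 in FDG-increased ileum. The 3 FDG-increased libraries of the sham table lay above the sham libraries, and the FDG-increased library of the RYGB table alone lay inside the sham range.

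Markers of several cell types were higher in the same libraries as the type I targets, and markers of fat and upper intestine summed lower there. The 13 T and NK cell markers, all with a row, summed to 96.1, 94.72 and 170.0 FPKM in FDG-increased ileum, against 75.96, 43.47 and 67.44 FPKM in sham ileum. The macrophage and dendritic cell markers, 12 of 13 with a row, summed to 355.8, 248.2 and 316.5 FPKM in FDG-increased ileum, against 192.7, 108.6 and 188.4 FPKM in sham ileum. The 6 ileal enterocyte markers, all with a row, summed to 18510, 21720 and 26340 FPKM in FDG-increased ileum, against 2647, 9792 and 13020 FPKM in sham ileum. Fabp6 alone made up most of that sum in sham replicates 2 and 3. The mean log2(FPKM + 1) of the 6 was 9.012, 9.479 and 9.785, against 7.199, 8.41 and 8.774 in sham ileum. For these 3 lists the groups did not overlap. None of these markers was at 0 in the sham table, and their part in the result was not tested. B and plasma cell markers, 5 of 7 with a row, summed to 16.17 to 25.48 FPKM in FDG-increased ileum and to 10.22 to 24.04 FPKM in sham ileum, ranges that overlap. Plasmacytoid dendritic cell markers, 4 of 5 with a row, summed to 29.31 to 34.58 FPKM in FDG-increased ileum and to 27.74 to 33.94 FPKM in sham ileum, ranges that overlap. Fat markers summed to 9.197, 21.96 and 8.735 FPKM in FDG-increased ileum, against 22.57, 128.2 and 30.76 FPKM in sham ileum. Upper intestine markers summed to 3.687, 0.7369 and 1.644 FPKM, against 394.0, 29.09 and 4.165 FPKM in the same order. By these sums FDG-increased ileum was lower without overlap, whereas the mean log2(FPKM + 1) of either list overlapped. The part of fat and upper intestine was not tested. In whole tissue, fewer cells of a type and less RNA per cell cannot be told apart.

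**Figure D4:**
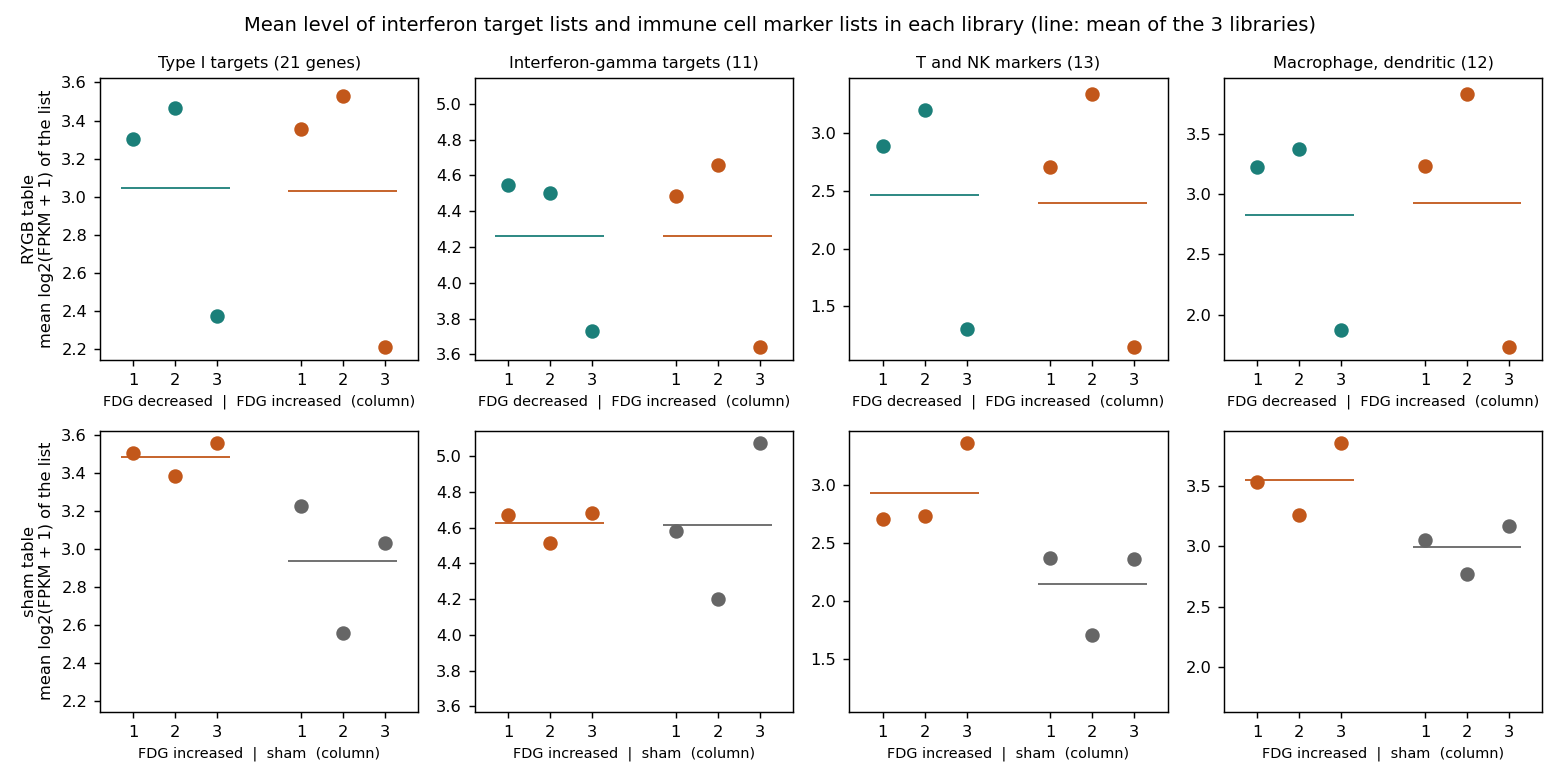
Mean log2(FPKM + 1) of the 21 type I targets, the 11 interferon gamma targets, the 13 T and NK cell markers and the 12 macrophage and dendritic cell markers in each library of the RYGB table (top) and the sham table (bottom). Points are libraries and lines are means of 3. In the top row replicate 3 is the lowest library of both groups in every panel, and in the bottom row the FDG-increased libraries lie above the sham libraries except for the interferon gamma targets.

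The size of the type I median depended on which libraries and which scaling were used. Without FDG-increased column 1 of the sham table, which has no sample label, 19 of 21 type I targets were higher. The median was then 0.56, against 0.22 for all genes. Without sham replicate 1, the library with little Fabp6, 19 of 21 type I targets were higher and the median was 0.67, against 0.15 for all genes. Without FDG-increased replicate 3 of the sham table the median was 0.29, with 18 of 21 higher, against 0.00 for all genes. Without sham replicate 2 the median was 0.37, against 0.13 for all genes. There 16 of 21 were higher, the fewest when a single library was left out. When every library was shifted to a common median log2 value, which took the median of all genes from 0.13 to 0.00, the type I median was 0.39 and the interferon gamma median -0.12. After quantile normalization these medians were 0.38 and -0.29, with -0.02 for all genes. The interferon gamma median thus lay below that of all genes as deposited and under both scalings, and it was positive as deposited and negative under both. All sham libraries came from lane 7. With the lane 7 libraries alone, 1 FDG-increased library by the numbers of the RYGB table against 3 sham libraries, 17 of 21 type I targets were higher with a median of 0.31.

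The FDG-increased library that occurs in the RYGB table alone did not share the difference. It lay below the sham range for 29 of the 33 members tested in that table and inside it for Isg15, Oasl, Ifit1 and Psmb10. Ddx58 at 6.09 FPKM, against a lowest sham value of 6.1, and Parp9 at 29.5, against 30.0, lay just below the range. Libraries in both tables have values multiplied by 1.0204 to 1.023 in the sham table, which was not corrected here. The place of Ddx58 and Parp9 is therefore uncertain. Over all genes 36.0% lay below the sham range and 15.0% above it. Irf7 had 9.67 FPKM in that library, against 12.2 to 27.6 FPKM in sham ileum, and Usp18 0.492 FPKM, against 1.61 to 3.15 FPKM. Its T and NK cell markers summed to 22.62 FPKM, with Klrd1 at 0, and its macrophage and dendritic cell markers to 47.2 FPKM, both below every sham library. Its enterocyte markers summed to 8569 FPKM, inside the sham range. The part of those cells in the low values was not tested. The tables were scaled separately and no test was run across them.

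Between FDG-decreased and FDG-increased ileum no member passed the test. Limma called 0 of 10739 genes (0%) after Benjamini-Hochberg adjustment, 0 members among them, and at an unadjusted p under 0.05 it found 110 genes (1.02%) and 0 members. Of 33 members 17 were higher in FDG-decreased ileum and 16 lower, with a median of 0.05, against 55.2% of all genes higher and a median of 0.02. Type I targets divided into 12 higher and 8 lower with a median of 0.06, and interferon gamma targets into 3 higher and 7 lower with a median of -0.09. The groups overlapped for every member tested, whereas they did not overlap for 3.2% of all genes.

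Same-numbered libraries of the RYGB table varied together. Replicate 3 was the lowest of its group in both groups for 30 of 33 members, against 35.4% of all genes. In those replicates the T and NK cell markers summed to 30.98 FPKM in FDG-decreased ileum, with 104.4 and 166.1 FPKM in its other libraries, and to 22.62 FPKM in FDG-increased ileum, with 92.59 and 166.6 FPKM in its other libraries. The macrophage and dendritic cell markers summed to 217.9, 176.0 and 57.32 FPKM in FDG-decreased ileum, against 242.6, 310.2 and 47.2 FPKM in FDG-increased ileum. The ileal enterocyte markers summed to 17990, 20840 and 6720 FPKM in FDG-decreased ileum, against 21230, 25820 and 8569 FPKM in FDG-increased ileum. Replicate 3 was also the lowest of both groups for the markers of B and plasma cells, plasmacytoid dendritic cells and red blood cells. The part of these cells in the low replicates was not tested. Smooth muscle markers, 4 of 4 with a row, ran the other way. They had 646.9 FPKM in FDG-decreased replicate 3 and 708.6 FPKM in FDG-increased replicate 3, each the highest of its group. Upper intestine markers, 4 of 4 with a row, differed between the groups. They summed to 18.7, 12.26 and 40.72 FPKM in FDG-decreased ileum, against 0.7204, 1.611 and 2.885 FPKM in FDG-increased ileum. Neither these sums nor the mean log2(FPKM + 1) of that list overlapped between the groups. The part of upper intestine here was not tested.

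With the replicate number as a block, limma called 122 of 10739 genes (1.14%) after Benjamini-Hochberg adjustment, and again 0 members. At an unadjusted p under 0.05 with the block 1 member was higher in FDG-decreased ileum, Irf1 (4.81% of all genes), and 1 was lower, Isg15 (4.7% of all genes). FDG-decreased ileum was higher in all 3 pairs for 17.2% of all genes. By rounded differences it was so for 9 members, Irf9, Irf1, Ifit1, Bst2, Rtp4, Ddx58, Igtp, Parp14 and Dtx3l. Before rounding Irgm was also higher in all 3 pairs, with 7.61 against 7.6 FPKM in pair 3. FDG-decreased ileum was lower in all 3 pairs for 7 members, Irf8, Isg15, Oasl, Mx2, Ifih1, Psmb8 and Tap1, against 12.7% of all genes.

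Irf1, the transcription factor that interferon gamma raises first, had 84.3, 90.0 and 60.3 FPKM in FDG-decreased ileum, against 54.1, 68.0 and 41.4 FPKM in FDG-increased ileum. It was higher in FDG-decreased ileum by 0.63, 0.40 and 0.53 in the 3 pairs, while the unpaired groups overlapped. The difference was 0.52 with a limma and Benjamini-Hochberg adjusted p of 1 (SE 0.347), and of 0.116 with the block (SE 0.131). In the sham table, which shares FDG-increased libraries, Irf1 had 56.3, 55.3 and 69.4 FPKM in FDG-increased ileum, against 65.9, 75.7 and 92.3 FPKM in sham ileum.

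Isg15 had 36.9, 22.6 and 4.07 FPKM in FDG-decreased ileum, against 42.3, 30.9 and 8.51 FPKM in FDG-increased ileum. Each FDG-decreased library lay below its partner, by -0.19, -0.43 and -0.91. The difference was -0.51 with a limma and Benjamini-Hochberg adjusted p of 1 (SE 0.835), and of 0.272 with the block (SE 0.165). Oasl had 18.3, 16.0 and 5.05 FPKM in FDG-decreased ileum, against 23.0, 22.2 and 5.37 FPKM in FDG-increased ileum, a difference of -0.28.

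**Figure D5:**
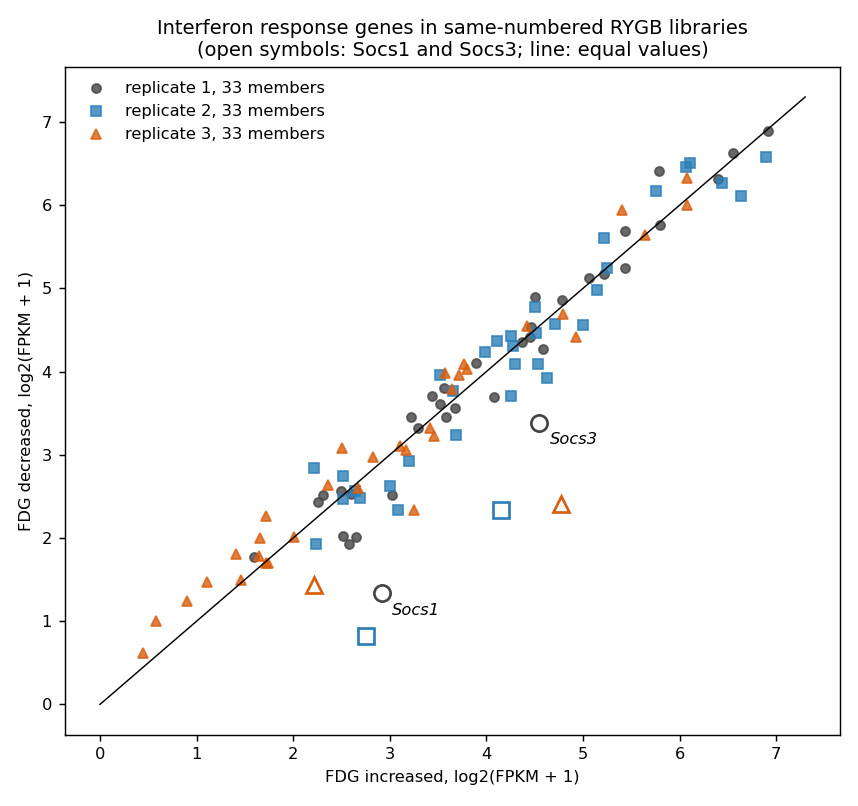
FDG-decreased against FDG-increased level, log2(FPKM + 1), of the 33 members in the 3 same-numbered pairs of the RYGB table, with the line of equal values. Open symbols are Socs1 and Socs3, which are not members. The members follow the line over all levels, whereas Socs1 and Socs3 lie below it in all 3 pairs.

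The largest difference of each remaining role was small beside the spread of its libraries. Ddx58 had 8.96, 17.9 and 6.87 FPKM in FDG-decreased ileum, against 8.83, 14.8 and 6.09 FPKM in FDG-increased ileum, a difference of 0.14. Gbp2 had 11.9, 14.2 and 3.05 FPKM in FDG-decreased ileum, against 15.9, 23.7 and 3.01 FPKM in FDG-increased ileum, a difference of -0.36. For both genes replicate 3 was the lowest library of each group. Tap1, a subunit of the peptide transporter, had 20.4, 16.1 and 8.33 FPKM in FDG-decreased ileum, against 20.9, 18.7 and 10 FPKM in FDG-increased ileum, a difference of -0.16. Parp14 had 28.0, 47.7 and 15.3 FPKM in FDG-decreased ileum, against 26.6, 36.3 and 12.9 FPKM in FDG-increased ileum, a difference of 0.23. The limma p after Benjamini-Hochberg adjustment was 1 for all 4, and with the block 0.899 for Ddx58, 0.577 for Gbp2, 0.86 for Tap1 and 0.727 for Parp14.

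Leaving out 1 library turned the direction of most members. These fits did not use the pairs, so the partner of a left-out library stayed in without its match. Without FDG-increased replicate 3 only 2 of 33 members were higher in FDG-decreased ileum, with a median of -0.33, against -0.09 for all genes. Without FDG-decreased replicate 3 it was 30 of 33, with a median of 0.30, against 0.10 for all genes. Without both, 17 of 33 were higher and the median was 0.00. Among interferon gamma targets 3 of 10 were higher in that last fit, with a median of -0.12.

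FDG-decreased ileum was set beside sham ileum without a test, since the tables were scaled separately. The ranges overlapped for 32 of the 33 members, and Bst2 was the exception, whereas 4.71% of the 10739 genes did not overlap. Irf7, for example, had 8.99 to 50.6 FPKM in FDG-decreased ileum and 12.2 to 27.6 FPKM in sham ileum.

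The other genes of the pathway were read from a list of 63, of which 51 had a row and 44 were tested in each table. In the sham table, 34 of them were higher in FDG-increased ileum and 10 lower, with a median of 0.26, against 64.7% higher and a median of 0.13 for all genes. Limma called 0 of these after Benjamini-Hochberg adjustment, and at an unadjusted p under 0.05 there were 3 higher (6.15% of all genes) and 2 lower (1.69%). In the RYGB table, 28 of them were higher in FDG-decreased ileum and 16 lower, with a median of 0.07, against 55.2% higher and a median of 0.02 for all genes. By limma 0 were called without the block, where an unadjusted p under 0.05 was found for 0 higher and 2 lower genes (1.02% of all genes in either direction). The same 2, Socs1 and Socs3, were called lower with the block (1.14% of all genes called). At an unadjusted p under 0.05 with the block 5 were higher (4.81% of all genes), Irf2, Samhd1, Sp100, Ifi47 and Cxcl11, and Socs1 and Socs3 were the 2 lower (4.7%). The smallest p of those 5 was that of Cxcl11, a chemokine induced by interferon gamma, with a limma and Benjamini-Hochberg adjusted p of 0.089 with the block.

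Among the ligands Ifna1, Ifna4 and Ifnb1 were listed at 0 in every library, and Ifng, the interferon gamma gene, was listed at 0 to 0.501 FPKM. Ifna2 was listed at 0 in 7 of 12 columns and reached 1.07 FPKM in FDG-increased replicate 3 of the RYGB table. Ifnk, a type I interferon known from keratinocytes, had 0.586, 1.59 and 1.85 FPKM in FDG-increased ileum, against 2.92, 5.46 and 4.3 FPKM in sham ileum. Its difference was -1.17 (SE 0.303) with a limma and Benjamini-Hochberg adjusted p of 0.439, in the direction opposite to most type I targets. In the RYGB table Ifnk had 1.97, 2.63 and 3.8 FPKM in FDG-decreased ileum, against 1.56, 1.81 and 4.21 FPKM in FDG-increased ileum.

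The 5 receptor chains measured were all higher in FDG-increased than in sham ileum, and all their groups overlapped. The chains of the interferon lambda receptor differed most, Il10rb by 0.79 (SE 0.394, adjusted p = 0.671) and Ifnlr1 by 0.63 (SE 0.291, adjusted p = 0.652), by limma with Benjamini-Hochberg adjustment. Ifngr1 differed by 0.37, Ifngr2 by 0.26 and Ifnar1, a chain of the type I receptor, by 0.24. Between FDG-decreased and FDG-increased ileum the 5 chains differed by -0.17 to 0.10.

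The sensor adaptor Myd88 had 36.6, 38.9 and 38.0 FPKM in FDG-increased ileum, against 22.6, 19.9 and 21.2 FPKM in sham ileum. The libraries within each group were close and the groups did not overlap, with a difference of 0.80 (SE 0.248) and a limma and Benjamini-Hochberg adjusted p of 0.511. Cxcl9, a chemokine induced by interferon gamma, had 4.6, 4.07 and 3.59 FPKM in FDG-decreased ileum, against 3.37, 3.71 and 1.89 FPKM in FDG-increased ileum, a difference of 0.38 (SE 0.275, limma and Benjamini-Hochberg adjusted p = 1).

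Socs1 and Socs3, which shut off cytokine receptors, lay lower in every FDG-decreased library. Socs3 had 9.46, 4.04 and 4.33 FPKM in FDG-decreased ileum, against 22.4, 16.8 and 26.3 FPKM in FDG-increased ileum. Socs1 had 1.53, 0.772 and 1.71 FPKM in FDG-decreased ileum, against 6.54, 5.76 and 3.65 FPKM in FDG-increased ileum. Neither gene's groups overlapped. The differences were -1.78 (SE 0.356) for Socs3 and -1.43 (SE 0.296) for Socs1, each with a limma and Benjamini-Hochberg adjusted p of 1. With the block the adjusted p by limma was 0.00555 for Socs3 and 0.0141 for Socs1. In the sham table Socs3 had 14.4, 22.9 and 17.2 FPKM in FDG-increased ileum, against 4.05, 7.76 and 14.0 FPKM in sham ileum, a difference of 1.11 (SE 0.393, limma and Benjamini-Hochberg adjusted p = 0.562). Socs1 had 6.19, 6.69 and 5.88 FPKM in FDG-increased ileum, against 8.48, 1.26 and 7.95 FPKM in sham ileum, groups that overlapped. Its difference was 0.33 (SE 0.5, limma and Benjamini-Hochberg adjusted p = 0.911), and -0.35 to 0.69 leaving out single libraries.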

How the data were processed

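Total RNA of rat ileum was measured, and the labels give 3 groups of 3 samples, grouped by their titles. Per the labels' protocols, ribosomal RNA was depleted and the kit was stranded. The submitters' processing notes name STAR 2.6.0a, Cufflinks 2.2.1, bcl2fastq 1.8.4, DESeq2 1.24.0 and Cuffdiff, and list a human build although the symbols are those of rat. No source used here says whether the counting used strand. The authors deposited 2 tables of FPKM per gene, each with 6 libraries and its own scaling. The ratios of low values gathered at no common step, so whole reads could not be recovered, depth is unknown and no counting interval is given. Columns of samples left unused numbered 0.

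Of 17145 rows per table, 25 with date-like symbols were left out. The analysis used log2(FPKM + 1) of the genes that averaged 1 FPKM or more across a table's 6 libraries. The test was limma 3.58.1 in R 4.3.3 with an intensity trend and robust variances, fitted on all genes within a table, no covariate, Benjamini-Hochberg adjustment and a threshold of 0.05. The fit was tested on simulated data. Tables were prepared with pandas 2.3.3 in Python 3.11.15. Of the 37 symbols 36 are current in RefSeq.

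The members and lists were chosen with earlier results of these data known. Values in every library are given for members with an adjusted or unadjusted p under 0.05 in a table, with or without the block, and for the member with the largest difference of each role. Of the other pathway genes the ligands and receptors are named, with those called and the 3 of smallest p in each table, and 1 listed gene is not reported here. Bst2, Tap1 and Irf1 against sham, and the motif spacing, were chosen after their values were seen.

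In the RYGB table the deviations of same-numbered libraries from the group mean correlated by 0.85, 0.76 and 0.77 (10739 genes), so the numbers of the labels pair the samples there. Lane and pair cannot be told apart in pairs 1 and 2, which each come from 1 lane. The FDG-increased column numbers of the sham table conflict with those of the RYGB table and were not used to pair.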

Additional observations from a re-analysis of the deposited data

How the results depend on the processing

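Other pseudocounts, filters, scalings, a plain variance model, the replicate block and leaving out each library were tried. The lane 7 libraries alone and the fits without both libraries numbered 3 were added after seeing the data. Members called numbered 0 under every alternative run. For FDG-decreased against FDG-increased ileum, genes called by limma numbered 0, but 122 with the replicate block, 345 with the block and without both libraries numbered 3, and 0 to 1 leaving out single libraries. For FDG-increased against sham ileum they numbered 4, but 1 with a pseudocount of 0.1, 0 with no filter on low values, 1 after a shift to a common median, 0 after quantile normalization and 0 to 13 leaving out single libraries. The cause of these shifts was not tested. The block changed no member's call. Leaving out single libraries turned the sign of 10 of 34 members against sham (3 type I targets, 6 interferon gamma targets and 1 induced by both) and of 30 of 33 members between FDG-decreased and FDG-increased ileum. Of the members picked by the naming rule, the signs that turned were those of Psmb10 against sham, -0.21 after quantile normalization, -0.07 with lane 7 alone and -0.15 to 0.40 leaving out single libraries. In FDG-decreased against FDG-increased ileum single libraries were left out without the block. That gave -1.17 to 0.34 for Isg15, -0.91 to 0.25 for Oasl and -0.22 to 0.45 for Ddx58. For Gbp2 it gave -1.14 to 0.24, for Tap1 -0.46 to 0.19 and for Parp14 -0.17 to 0.63. In the sham table the planned block was not run: no paired analysis was possible because its FDG-increased column numbers conflict with those of the RYGB table. Since depth is unknown, the counting error of low genes such as Usp18 cannot be given.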
